A study of Mus musculus with 6 samples.

Results

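Cholesterol genes were followed in CD8+ Teff, the effector T cells that grow out of activated splenic CD8+ T cells. The group holds 32 genes of 5 roles: 8 enzymes of the mevalonate and isoprenoid stretch, 11 enzymes of squalene and sterol synthesis, 4 genes of SREBP2 and its regulators, 4 genes of sterol transport and storage, and 5 LXR genes and targets. Members were chosen by gene name, and all 32 were found in each of the 6 libraries, out of 34745 genes listed. A mean of at least 1 FPKM over the 6 libraries (a level scaled to gene length and library size) was reached by 30 of the 32 members and by 9627 of all genes.

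Cells build cholesterol from acetyl-CoA through mevalonate, farnesyl diphosphate, squalene and lanosterol. SREBP2, the transcription factor that switches these enzymes on, is carried from the ER to the Golgi by SCAP when sterols are low, and INSIG proteins hold SCAP back when sterols are plentiful. LXR receptors sense oxysterols and switch on efflux pumps, and activated T cells are known to raise sterol synthesis and to lower LXR targets while they divide.

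The libraries came from male mice aged 6 to 8 weeks, per the study's methods: 3 from WT C57BL/6J mice, which were purchased, and 3 from donated B6.129-Scd1tm1Ntam/J mice (Scd-1-/-), in which stearoyl-CoA desaturase 1, the enzyme that makes oleate from stearate, is lost in the whole body. CD8+ T cells were isolated from spleen with beads, and all 6 cultures received anti-CD3 (5 µg/mL), anti-CD28 (0.5 µg/mL) and IL-2 (100 U/mL) for 3 days, then IL-2 for 3 days more, with harvest on day 6. Both genotypes carry the replicate numbers 1, 2 and 3. The study's methods speak in general of at least 3 independent experiments behind its results. Nothing in the sources used here ties this to the replicate numbers or says how many mice gave a library. The p-values thus measure only the spread between these samples, and genotype cannot be told apart from the origin of the mice.

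Each library held between 14034479 and 15866216 counts. *Scd1* was at 52.7 ± 6.69 FPKM (SD, n = 3) in WT and at 0.396 ± 0.134 FPKM (SD, n = 3) in Scd-1-/- Teff, as its genotype labels say. Replicate number moved many genes. In the quasi-likelihood test of edgeR with Benjamini-Hochberg adjustment, a fit with genotype and replicate number as a block gave an adjusted p under 0.05 to 15.9% of the 9627 genes for replicate number and to 4.70% for genotype. The fit with genotype alone, used for the values given next unless stated, gave it to 0.114% (11 genes, and 2 to 182 genes with 1 library left out). The CD8 T cell list (*Cd3d*, *Cd3e*, *Cd3g*, *Cd8a*, *Cd8b1*, *Cd2*) summed to 1606 to 1940 FPKM in WT and 1542 to 1786 FPKM in Scd-1-/- libraries. Within it *Cd8a* was at 45.9 ± 2.42 FPKM (SD, n = 3) in WT and lower in each Scd-1-/- library, at 32.7 ± 4.46 FPKM (SD, n = 3), a log2 fold change of -0.46 that did not pass the test (adjusted p = 0.297), and *Cd8b1* had -0.30 with overlapping groups. Of 8 myeloid markers none reached a mean of 1 FPKM over the 6 libraries and 3 (*Adgre1*, *C1qa*, *C1qc*) were at 0 in all libraries, but the list's sum was 0.228 to 0.608 FPKM in WT and 1.79 to 2.07 FPKM in Scd-1-/- Teff. Most of this was *Cd14*, at 0.289 ± 0.151 FPKM (SD, n = 3) in WT and higher in each Scd-1-/- library, at 1.55 ± 0.378 FPKM (SD, n = 3), with an adjusted p of 0.0956 in edgeR and 0.0287 with the replicate block. *Itgam* had 0.0650 and 0.336 FPKM by mean with overlapping groups, and an adjusted p of 0.524, or 0.0464 with the block. *Cd4* was at most 0.345 FPKM. Of 3 B cell markers *Ms4a1* was at 0, and the list, nearly all *Cd79b*, summed to 9.41 to 10.7 FPKM in WT and 3.13 to 7.99 FPKM in Scd-1-/- Teff. *Cd79b* was lower in each Scd-1-/- library (log2 fold change -1.02, adjusted p = 0.387 in edgeR and 0.0434 with the block). The pair of NK cell markers, mostly *Klrb1c*, summed to 0.501 to 1.16 FPKM in WT and 1.66 to 9.39 FPKM in Scd-1-/- Teff. The 4 dendritic cell markers, mostly *Itgax* and with *Xcr1* at 0, summed to 0.544 to 2.75 and 1.96 to 8.30 FPKM, and the 4 erythroid markers to at most 0.787 FPKM. *Itgax* had a log2 fold change of 1.69 with overlapping groups (adjusted p = 0.529 in edgeR and 0.00591 with the block). The part of these markers in the values given next was not tested. In such bulk samples, fewer cells of a type and less RNA per cell cannot be told apart.

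No member differed between Scd-1-/- and WT Teff at an adjusted p under 0.05. The count was 0 of the 30 tested members in the quasi-likelihood test of edgeR, in DESeq2 and in limma, where 0.114%, 2.76% and 0.177% of all genes were called. At an unadjusted p under 0.05, edgeR gave 1 of 30 members (*Dhcr7*), against 10.1% of all genes. The study's own thresholds (a fold change of 2 or more in either direction, 1 on the log2 scale, and p under 0.001) were passed by 0 members and by 0.738% of all genes. The members' log2 fold changes (Scd-1-/- over WT) had a median of -0.04, 14 above and 16 below 0, beside a median of 0.00 over all genes. Their median size was 0.156, beside 0.178 over all genes, and the largest was 0.49 in size (*Acat2*). The 95% interval of the log2 fold change lay inside -1 to 1 for 27 of the 30 members and for 7416 of the 9627 genes. The 3 members with wider intervals were *Insig1*, *Hsd17b7* and *Mylip*. With the replicate number as a block, 0 of 30 members and 4.70% of all genes were called, and 7 members had an unadjusted p under 0.05, as had 22.4% of all genes.

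**Figure D1:**
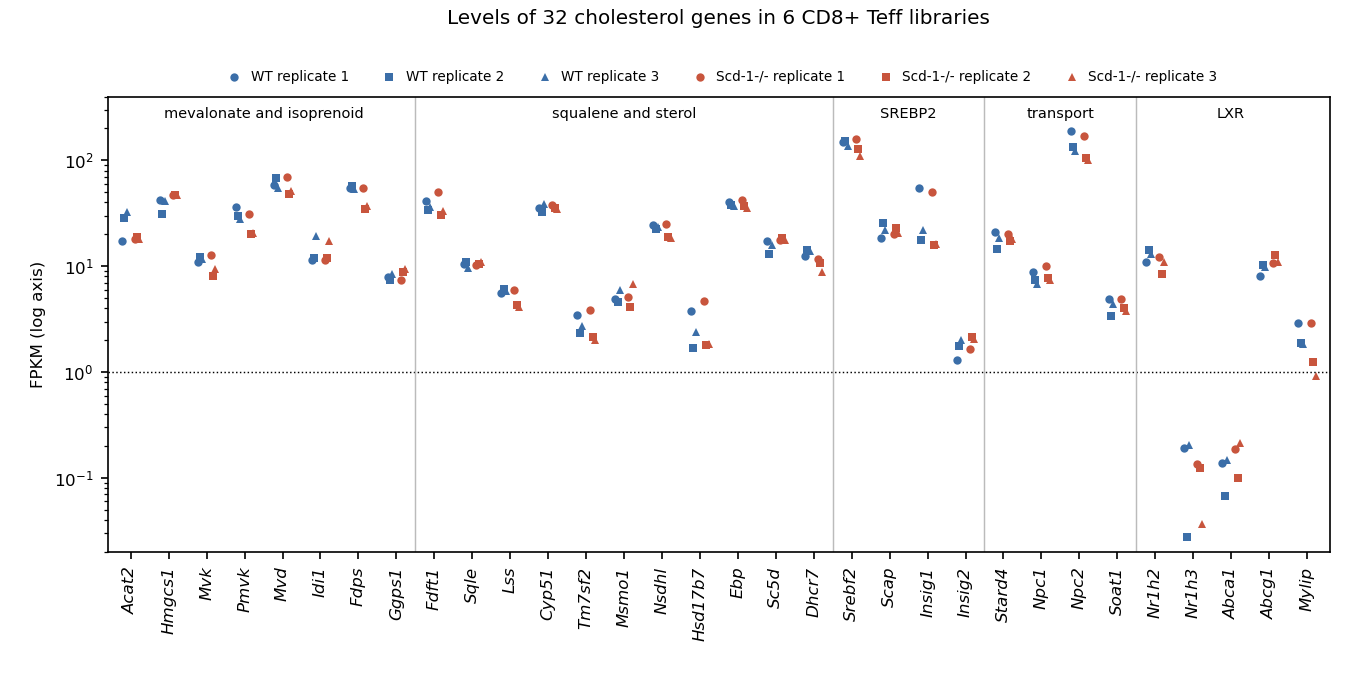
FPKM on a log axis of the 32 members in each library, with WT in blue, Scd-1-/- in red, and circles, squares and triangles for replicates 1, 2 and 3. The dotted line marks a level of 1 FPKM, under which only *Nr1h3* and *Abca1* lie in every library, and the points of both genotypes overlap for 28 of the 32 members.

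In level, the group ran from *Npc2* and *Srebf2*, both above 100 FPKM in every library, to *Nr1h3* and *Abca1*, which did not pass 0.215 FPKM in any. Most of the enzymes lay between these ends, with *Mvd* and *Fdps* the highest by mean over the libraries and *Hsd17b7* and *Tm7sf2* the lowest.

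Promoters were read for the enzymes and regulators on which the results turn, to set the data beside the letters that SREBP2 and its partner NF-Y are known to bind. RefSeq's promoter table (GRCm38.p6, 250 bases before to 50 after each start) held 33 promoters for 26 of the members, and *Fdps*, *Fdft1*, *Sqle*, *Stard4*, *Npc1* and *Abcg1* had no entry. The sterol regulatory element, searched on both strands as TCACNCCAC, was found in *Hmgcs1* alone, beside 1.24% of 32851 promoters in the table. Its shorter core CACNCCAC, which lies within it, was found in 3 of 33 member promoters (*Hmgcs1*, *Acat2* and *Insig1*, 9.09%), beside 6.24% of all promoters. The NF-Y box CCAAT was found in 21 of 33 (63.6%), beside 37.4% of all. Neither of 2 spellings of the LXR element, the direct repeat with a spacer of 4 bases (in 0.0152% of all promoters) and a looser one (in 0.14%), was in a member's window, which says only that these letters are not there. The 250 bases before the start are printed for the 3 members with the core and for *Hsd17b7* and *Npc2*, which moved with *Insig1* between replicate numbers. Capitals mark CACNCCAC, TCACNCCAC and CCAAT on either strand. The regions are chr13:119690101-119690350 (*Hmgcs1*, plus strand), chr17:12960726-12960975 (*Acat2*, minus), chr5:28071162-28071411 (*Insig1*, plus), chr1:169969206-169969455 (*Hsd17b7*, minus) and chr12:84773113-84773362 (*Npc2*, minus).
Hmgcs1: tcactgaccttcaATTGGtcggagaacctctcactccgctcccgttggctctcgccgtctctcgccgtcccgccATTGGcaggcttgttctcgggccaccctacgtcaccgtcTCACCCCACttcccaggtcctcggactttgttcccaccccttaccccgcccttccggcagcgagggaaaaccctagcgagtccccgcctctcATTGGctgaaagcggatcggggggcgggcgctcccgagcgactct
Acat2: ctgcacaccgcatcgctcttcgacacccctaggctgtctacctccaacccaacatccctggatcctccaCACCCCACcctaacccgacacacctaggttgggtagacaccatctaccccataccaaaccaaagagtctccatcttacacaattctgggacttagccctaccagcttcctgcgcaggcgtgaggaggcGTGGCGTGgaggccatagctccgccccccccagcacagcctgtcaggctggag
Insig1: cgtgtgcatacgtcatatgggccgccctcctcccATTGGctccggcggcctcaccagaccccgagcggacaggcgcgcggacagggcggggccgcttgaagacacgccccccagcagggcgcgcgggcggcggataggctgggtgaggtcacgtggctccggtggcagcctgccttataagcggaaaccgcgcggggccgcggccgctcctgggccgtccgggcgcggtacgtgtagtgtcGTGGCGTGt
Hsd17b7: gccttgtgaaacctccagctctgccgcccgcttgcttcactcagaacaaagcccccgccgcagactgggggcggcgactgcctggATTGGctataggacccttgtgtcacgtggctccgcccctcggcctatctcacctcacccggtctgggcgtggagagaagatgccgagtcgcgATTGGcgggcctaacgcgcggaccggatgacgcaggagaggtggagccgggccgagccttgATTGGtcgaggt
Npc2: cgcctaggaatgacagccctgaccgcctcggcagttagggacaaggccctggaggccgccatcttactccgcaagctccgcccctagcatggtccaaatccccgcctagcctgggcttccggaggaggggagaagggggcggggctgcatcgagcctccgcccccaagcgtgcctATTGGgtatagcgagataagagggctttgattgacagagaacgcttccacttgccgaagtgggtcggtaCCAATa
In *Hmgcs1* the core begins 136 bases before the start, and 3 CCAAT boxes precede the start, all on the other strand. *Insig1* carries its core 9 bases before the start with 1 CCAAT box farther up, and *Acat2* carries 2 cores and no CCAAT box. *Hsd17b7* has 3 CCAAT boxes and *Npc2* has 2, neither with a core. The start meant here is that of the promoter table, and GENCODE, used for the gene positions, can place it elsewhere. By GENCODE the *Insig1* gene begins at 28071363, so its core lies inside the gene. The same holds for the *Hsd17b7* box 12 bases and the *Npc2* box 6 bases before the start.

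The first enzymes turn acetyl-CoA into isoprenoid units, and 2 of the 8 lay above and 6 below WT in Scd-1-/- Teff, none past the test. *Acat2* (chromosome 17, 12942890 to 12960747 on GRCm38), the cytosolic thiolase that joins acetyl-CoA units, had 17.2, 28.8 and 32.4 FPKM in WT replicates 1, 2 and 3 and 18.2, 18.8 and 18.0 FPKM in the Scd-1-/- ones. All 3 Scd-1-/- libraries sat beside WT replicate 1, and the other two WT libraries stood above them. In the fit with genotype alone *Acat2* had the largest fold change of the 30 tested members, -0.49 on the log2 scale (SE 0.220, adjusted p = 0.524). With the replicate block it had -0.44, and *Mylip* was larger in size at -0.48. Reads of *Acat2* are uncertain to a degree, since its longest transcript is 97.7% identical to one of *Acat3* over 65.6% of its length, and *Acat3* had a mean of 56.0 counts beside 1144 for *Acat2*.

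*Hmgcs1* (chromosome 13, 119690379 to 119708260), the cytosolic HMG-CoA synthase, went the other way. It lay at 42.4, 30.8 and 41.6 FPKM in WT and at 46.7, 46.7 and 47.0 FPKM in Scd-1-/- replicates 1, 2 and 3. All Scd-1-/- libraries stood above all WT ones and close to each other, while WT replicate 2 was low. The log2 fold change was 0.31 (SE 0.154), with a 95% interval from -0.04 to 0.67 and an adjusted p of 0.557.

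Mevalonate is then phosphorylated and decarboxylated. *Mvk*, mevalonate kinase, had 10.9, 12.1 and 11.8 FPKM in WT and 12.8, 8.08 and 9.44 FPKM in Scd-1-/- replicates 1, 2 and 3. For *Pmvk*, phosphomevalonate kinase, the levels were 36.4, 29.9 and 27.9 FPKM and then 31.4, 20.4 and 20.8 FPKM. *Mvd*, the decarboxylase, followed with 58.9, 67.9 and 54.7 FPKM in WT and 69.1, 48.0 and 50.9 FPKM in Scd-1-/- Teff. In all 3 genes, Scd-1-/- replicate 1 lay among or above the WT libraries and Scd-1-/- replicates 2 and 3 lay below all of them. The log2 fold changes were -0.17, -0.36 and -0.09.

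*Idi1*, the isomerase of isopentenyl diphosphate, did not follow genotype but replicate 3, at 11.4, 11.9 and 19.4 FPKM in WT and 11.4, 11.8 and 17.2 FPKM in Scd-1-/- Teff. Stretches of the *Idi1* transcript are 90.4% to 100.0% identical to 3 other annotated genes that were not analysed here. *Fdps* (chromosome 3, 89093588 to 89101959), which makes farnesyl diphosphate, had 54.8, 57.3 and 53.9 FPKM in WT, and 54.6, 34.9 and 37.0 FPKM in Scd-1-/- Teff. Replicate 1 was thus alike in both genotypes, and Scd-1-/- replicates 2 and 3 lay far below the rest. The log2 difference was -0.37 (SE 0.187, adjusted p = 0.567). *Fdps* shares 26.7% of its exon bases, on the same strand, with *Gm43738*, which had a mean of 485 counts beside 4107 for *Fdps*. *Ggps1*, which makes geranylgeranyl diphosphate for prenylation, had 7.85, 7.41 and 8.38 FPKM in WT and 7.46, 8.84 and 9.32 FPKM in Scd-1-/- Teff (log2 fold change 0.14), so the groups overlapped.

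Counts of the 8 genes summed to 851, 871 and 907 CPM (counts scaled to library size) in WT and 878, 680 and 729 CPM in Scd-1-/- replicates 1, 2 and 3. The list's median log2 fold change was -0.13. It moved to -0.34 with replicates 2 and 3 alone and to -0.33 without Scd-1-/- replicate 1, and to -0.0151 without Scd-1-/- replicate 2.

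Among the 11 enzymes from squalene to cholesterol, 7 lay above and 4 below WT, none past the test, with a median log2 fold change of 0.04 that turned to -0.22 without Scd-1-/- replicate 1 and lay between -0.0147 and 0.0690 without any other library. *Fdft1*, squalene synthase and the first step given over to sterols, had 41.2, 34.0 and 36.3 FPKM in WT and 50.1, 30.2 and 33.0 FPKM in Scd-1-/- Teff. The highest and the lowest library were both Scd-1-/-. The exons of *Fdft1* share 774 bases with *Ctsb* on the opposite strand, which had a mean of 5599 counts beside 1596, and the use of strand in the counting is not given in the sources used here. *Sqle*, squalene epoxidase, a rate-limiting step, was among the steadiest members, at 10.4, 10.9 and 9.53 FPKM in WT and 10.3, 10.4 and 11.1 FPKM in Scd-1-/- Teff. Its highest library was 1.16 times its lowest, and the log2 fold change of 0.06 had a 95% interval from -0.24 to 0.36.

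*Lss* (chromosome 10, 76531588 to 76557138), lanosterol synthase, had 5.55, 6.03 and 5.79 FPKM in WT and 6.00, 4.30 and 4.08 FPKM in Scd-1-/- replicates 1, 2 and 3. As with *Fdps*, replicate 1 of Scd-1-/- lay among the WT libraries and the other two lay below them (log2 fold change -0.25, standard error 0.175). *Cyp51*, lanosterol 14-demethylase, was steady, with 35.4, 32.8 and 38.6 FPKM in WT and 37.6, 35.6 and 34.9 FPKM in Scd-1-/- Teff. The genotypes differed by 0.04 on the log2 scale, with a 95% interval from -0.23 to 0.31.

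*Tm7sf2*, a sterol C14 reductase, was low, at 3.45, 2.33 and 2.74 FPKM in WT and 3.83, 2.17 and 2.00 FPKM in Scd-1-/- Teff, and it shares 532 exon bases on the same strand with *Vps51*. The C4 demethylation enzymes followed. *Msmo1* had 4.92, 4.58 and 5.97 FPKM in WT and 5.16, 4.08 and 6.81 FPKM in Scd-1-/- Teff, with replicate 3 the highest in both. *Nsdhl* had 24.6, 22.2 and 23.5 FPKM, then 25.0, 18.8 and 18.4 FPKM. *Hsd17b7*, the 3-ketosteroid reductase, had 3.75, 1.68 and 2.40 FPKM in WT and 4.68, 1.80 and 1.86 FPKM in Scd-1-/- Teff. Replicate 1 of both genotypes stood well above the other libraries for *Hsd17b7*, and the genotypes overlapped in each of these 4 genes, whose log2 fold changes were -0.07, 0.08, -0.15 and 0.11.

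The last steps move and reduce double bonds. *Ebp*, the delta8-delta7 isomerase, had 40.8, 37.8 and 36.7 FPKM in WT and 42.4, 36.7 and 35.1 FPKM in Scd-1-/- Teff, a log2 difference of 0.01 with a 95% interval from -0.30 to 0.32. *Sc5d*, which adds the C5 double bond, had 17.5, 13.0 and 15.7 FPKM in WT and 17.7, 18.6 and 17.6 FPKM in Scd-1-/- Teff. All Scd-1-/- libraries lay above all WT ones, with WT replicate 1 only just under them (log2 fold change 0.24, adjusted p = 0.680). *Dhcr7* (chromosome 7, 143823145 to 143848410), the reductase that makes cholesterol from 7-dehydrocholesterol, had 12.5, 14.1 and 13.8 FPKM in WT and 11.7, 10.7 and 8.91 FPKM in Scd-1-/- Teff. Here all Scd-1-/- libraries lay below all WT ones. On the log2 scale the difference was -0.35 (SE 0.146) with a 95% interval from -0.68 to -0.01, and its adjusted p in edgeR was 0.485. The neighbouring steps of *Sc5d* and *Dhcr7*, which use the same branch of intermediates, thus lay on opposite sides of WT, with neither past the test. The 11 genes summed to 965, 900 and 949 CPM in WT and 1021, 841 and 850 CPM in Scd-1-/- Teff.

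**Figure D2:**
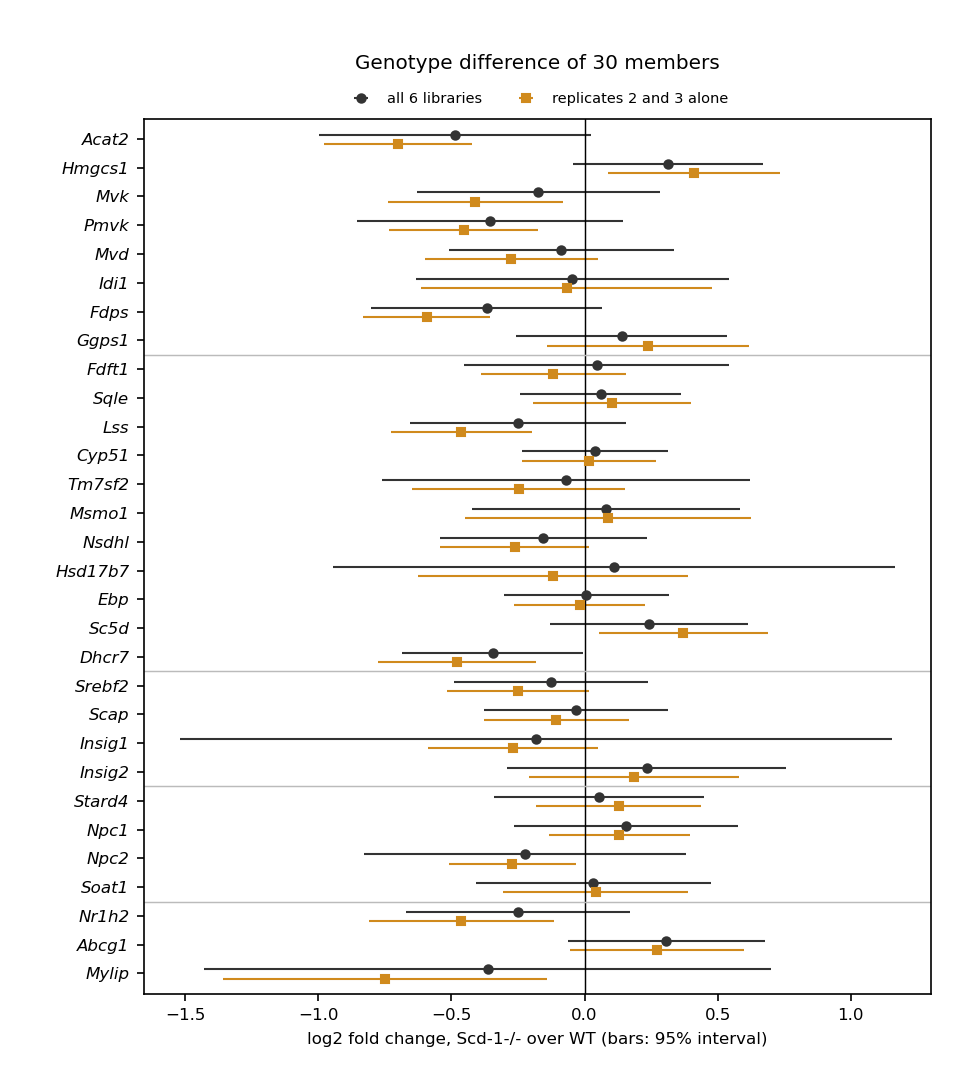
Log2 fold change (Scd-1-/- over WT) of the 30 tested members with its 95% interval, from all 6 libraries (black circles) and from replicates 2 and 3 alone (orange squares), grouped by role. The black intervals span 0 for all members but *Dhcr7* (-0.68 to -0.01), and the widest are those of *Insig1*, *Hsd17b7* and *Mylip*.

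Of SREBP2 and its regulators, 1 gene lay above and 3 below WT, none past the test. *Srebf2*, which encodes SREBP2, was abundant at 150, 154 and 137 FPKM in WT and 159, 128 and 111 FPKM in Scd-1-/- Teff (log2 fold change -0.13, 95% interval -0.49 to 0.24). *Scap*, the escort protein, had 18.3, 25.6 and 22.2 FPKM and then 20.2, 23.0 and 20.4 FPKM (log2 fold change -0.03). The groups overlapped in both genes.

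*Insig1* (chromosome 5, 28071363 to 28078662), an ER anchor of SCAP and itself a classic SREBP2 target, had 54.3, 17.6 and 21.8 FPKM in WT and 49.9, 15.7 and 16.1 FPKM in Scd-1-/- replicates 1, 2 and 3. Replicate 1 of both genotypes was far above the other 4 libraries, which lay close together, and its highest library was 3.46 times its lowest. The genotype difference was a log2 fold change of -0.18 with a standard error of 0.575 in the fit with genotype alone. In each replicate number the Scd-1-/- library was the lower. With the replicate block the value of *Insig1* was -0.22 (adjusted p = 0.281 in edgeR). Its paralog *Insig2*, which is less dependent on SREBP2, lay lower and had its lowest library in replicate 1, at 1.29, 1.77 and 2.02 FPKM in WT and 1.66, 2.14 and 2.07 FPKM in Scd-1-/- Teff (log2 fold change 0.23). *Insig1* was 7.36 to 42.1 times *Insig2* in FPKM, with both ratios above 30 in replicate 1.

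Transport and storage genes lay 3 above and 1 below WT, none past the test. *Stard4*, a soluble sterol carrier and SREBP2 target, had 21.0, 14.6 and 18.7 FPKM in WT and 20.1, 17.2 and 18.2 FPKM in Scd-1-/- Teff (log2 fold change 0.05). *Npc1*, the lysosomal membrane exporter of cholesterol, had 8.84, 7.40 and 6.75 FPKM in WT and 10.1, 7.70 and 7.43 FPKM in Scd-1-/- Teff (0.16). Replicate 1 was the highest library within each genotype for both genes. *Npc2*, the soluble lysosomal partner that hands cholesterol to NPC1, was the most abundant transporter, at 190, 133 and 121 FPKM in WT and 170, 106 and 101 FPKM in Scd-1-/- Teff. Within every replicate number the Scd-1-/- library lay below the WT one, and the spread between replicate numbers was wider than that gap (log2 fold change -0.22, standard error 0.260). *Soat1* makes cholesteryl esters, for which oleate, the product of SCD1, is a preferred acyl chain. It had 4.86, 3.41 and 4.40 FPKM in WT and 4.93, 4.04 and 3.79 FPKM in Scd-1-/- Teff, a log2 difference of 0.03 with a 95% interval from -0.41 to 0.47.

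LXR genes had 1 of the 3 tested members above and 2 below WT, none past the test. *Nr1h2*, which encodes LXR beta, had 11.0, 14.3 and 13.1 FPKM in WT and 12.3, 8.42 and 11.0 FPKM in Scd-1-/- Teff (log2 fold change -0.25). *Nr1h3*, which encodes LXR alpha, was near the limit of detection, with 15, 2 and 15 counts in WT and 11, 9 and 3 counts in Scd-1-/- Teff. The efflux pumps were as unequal. *Abcg1*, which passes sterols to HDL, had 8.10, 10.4 and 9.93 FPKM in WT and 10.7, 12.9 and 11.0 FPKM in Scd-1-/- Teff. All Scd-1-/- libraries lay above all WT ones, by a small margin (log2 fold change 0.31, standard error 0.160, adjusted p = 0.578). *Abca1*, which passes sterols to lipid-poor apolipoprotein, had 22, 10 and 22 counts in WT and 31, 15 and 36 counts in Scd-1-/- Teff. In FPKM, *Abcg1* was 51.4 to 154 times *Abca1* across the libraries, and *Nr1h2* was 57.7 to 90.4 times *Nr1h3* in the 4 libraries with 9 or more *Nr1h3* counts. *Nr1h3* and *Abca1* were taken from the fit without a minimum (17192 genes with any count), with log2 fold changes of -0.49 and 0.54 that were not called (adjusted p = 0.868 and 0.770). At such low counts the standard errors were 0.817 for *Nr1h3* and 0.493 for *Abca1*, so only large changes of these genes would be detectable.

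*Mylip*, an LXR target whose protein IDOL degrades lipoprotein receptors, had 2.93, 1.88 and 1.86 FPKM in WT and 2.94, 1.25 and 0.926 FPKM in Scd-1-/- replicates 1, 2 and 3. Replicate 1 was alike in both genotypes and the highest of each, and the 2 lowest libraries were Scd-1-/- replicates 2 and 3. The log2 fold change was -0.36 with a wide interval, from -1.43 to 0.70, and it ran from -1.02 without Scd-1-/- replicate 1 to -0.0676 without Scd-1-/- replicate 3.

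Across all roles, the groups did not overlap in 4 of the 30 tested members, *Hmgcs1*, *Sc5d* and *Abcg1* above and *Dhcr7* below WT. Over all genes the share was 16.0%, with 7.67% above and 8.32% below, so the members' share (13.3%) was near the background. With 3 libraries against 3, the smallest p of an exact two-sided permutation test on 1 value is 0.1.

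Replicates 2 and 3 were also set side by side alone, as 2 libraries against 2. This choice was made with the gap in these libraries already known, so its counts restate that gap and are no independent support for it. An adjusted p under 0.05 with a lower level in Scd-1-/- Teff was given to 5 of 30 members, beside 6.07% of all genes, and with a higher level to 0, beside 6.53%. At 2 against 2 libraries, 22 of 30 members did not overlap, as did 60.2% of all genes. The 5 were *Acat2* (log2 fold change -0.70), *Fdps* (-0.59), *Lss* (-0.46), *Pmvk* (-0.45) and *Dhcr7* (-0.48). They are 3 enzymes before squalene and 2 after it. *Hmgcs1* lay at 0.41, so the synthase and the thiolase just before it had opposite signs. The median over the members was -0.12, with 19 of 30 below 0, beside 0.00 over all genes, with 4796 of 9627 below 0.

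Whether the genotype difference itself depended on the replicate was tested with an interaction term, replicate 1 against replicates 2 and 3, an alternative chosen after seeing the data. The term had an adjusted p under 0.05 for 0 of 30 members in edgeR and for 0.384% of all genes, so no member was shown to differ in this way. At an unadjusted p under 0.05 it gave 5 members, all with a positive term, beside 4.83% of all genes with a positive one. They were *Acat2* (0.78 on the log2 scale, standard error 0.215), *Mvk* (0.64), *Nr1h2* (0.62), *Fdps* (0.58) and *Lss* (0.57). In these 5 genes the Scd-1-/- library of replicate 1 lay above its WT partner or, for *Fdps*, level with it, and those of replicates 2 and 3 lay below theirs.

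**Figure D3:**
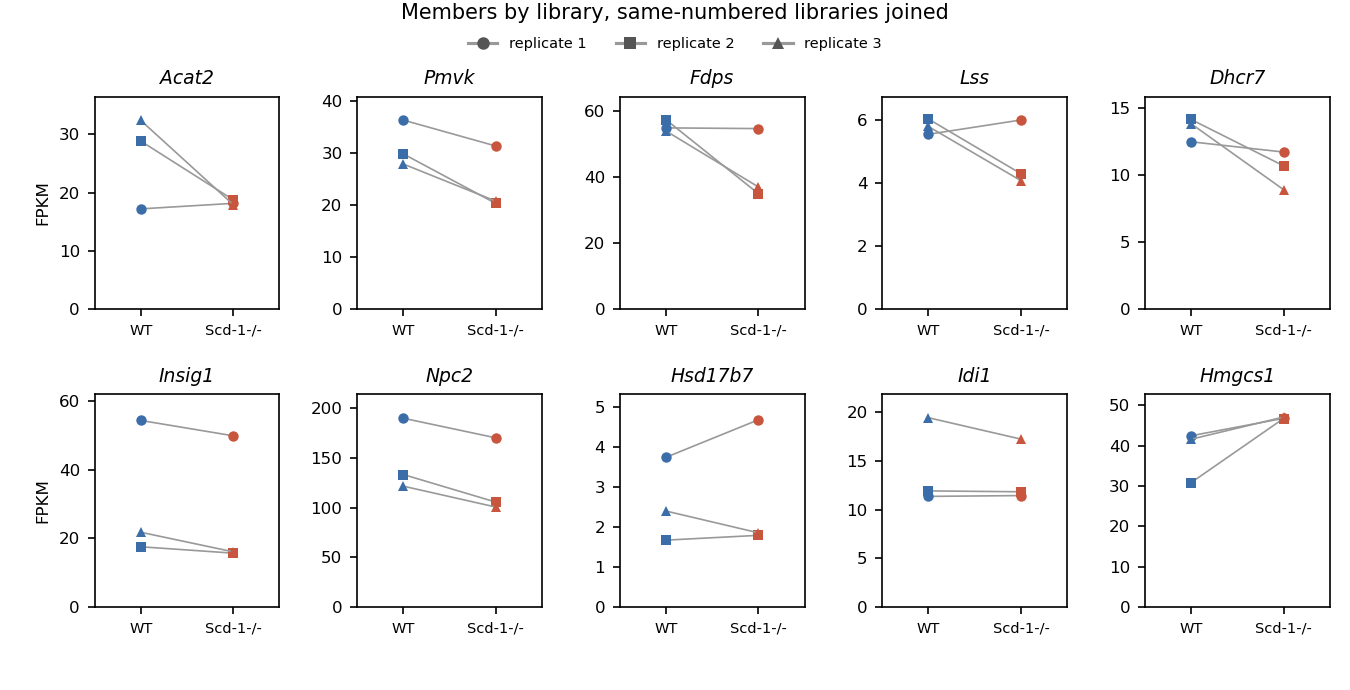
FPKM of 10 members in each library on axes that start at 0, with WT in blue, Scd-1-/- in red and grey lines joining libraries of the same replicate number. The upper row holds the 5 members called lower with replicates 2 and 3 alone, and the lower row holds the 4 members called for replicate number (*Insig1*, *Npc2*, *Hsd17b7* and *Idi1*) and *Hmgcs1*, whose Scd-1-/- libraries lie at 46.7, 46.7 and 47.0 FPKM.

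Replicate number moved 4 of the 30 members (13.3%, beside 15.9% of all genes) at an adjusted p under 0.05 in the fit with genotype. *Insig1* was the clearest, with a log2 fold change of 1.59 for replicate 1 over the mean of replicates 2 and 3 (SE 0.109, 95% interval 1.33 to 1.84, adjusted p = 0.00197). *Hsd17b7* followed at 1.16 (SE 0.186, adjusted p = 0.0168) and *Npc2* at 0.68 (0.0939, 0.0111), both again higher in replicate 1. *Idi1* was called on its high replicate 3 (adjusted p = 0.0234). *Mylip* and *Tm7sf2* had values of 1.07 and 0.70 and did not pass (adjusted p = 0.0554 and 0.0597). Among the enzymes, *Acat2*, *Idi1*, *Ggps1* and *Msmo1* had values below 0 for replicate 1 and the other 15 above 0. Of the members called, 3 were higher and 1 lower in replicate 1, beside 806 and 721 of all genes. The values of SREBP2 targets spread widely. Below *Insig1* came *Pmvk* (0.50), *Fdft1* (0.48), *Stard4* (0.30), *Hmgcs1* (0.15) and *Sqle* (0.01), and *Idi1* had -0.34. Why they differ was not tested.

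**Figure D4:**
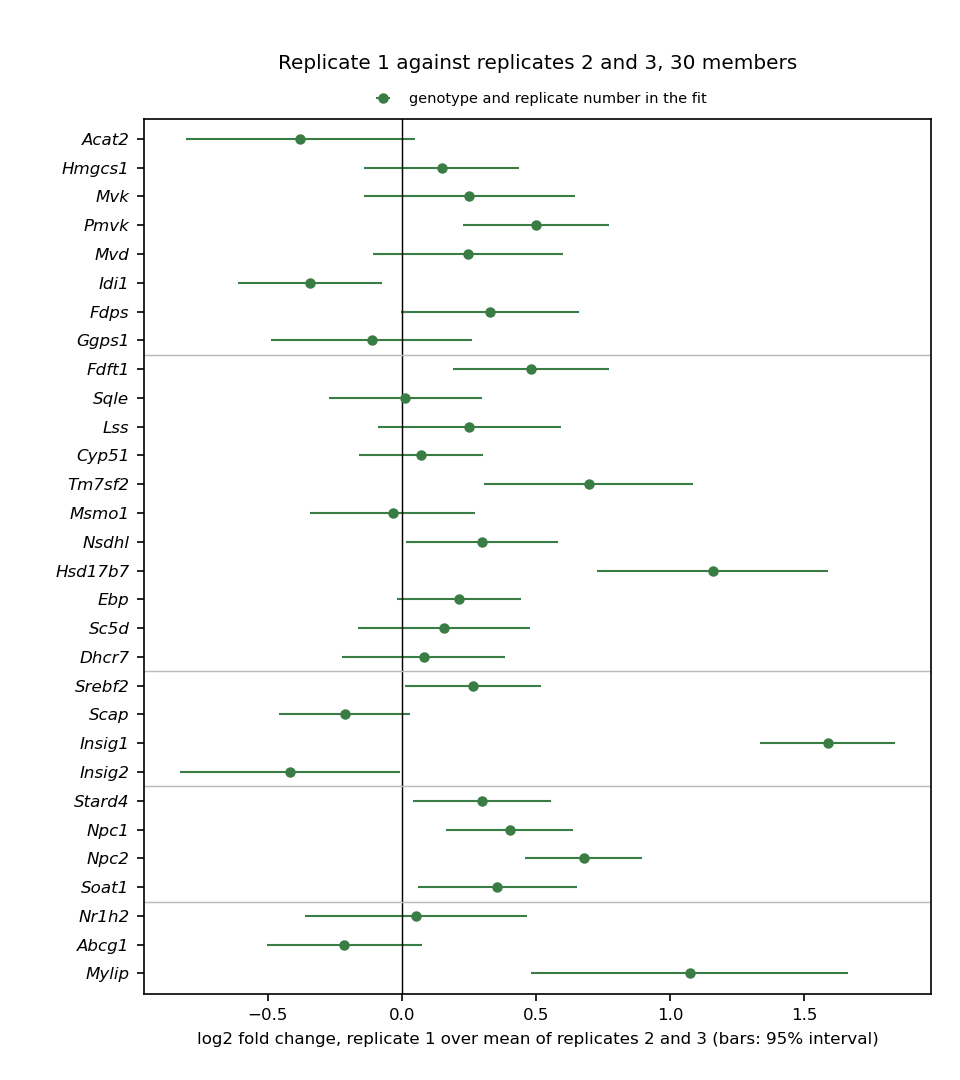
Log2 fold change of replicate 1 over the mean of replicates 2 and 3 for the 30 tested members, with its 95% interval, from the fit with genotype and replicate number. *Insig1* (1.59), *Hsd17b7* (1.16) and *Mylip* (1.07) stand farthest to the right, and most enzymes lie within 0.5 of 0.

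Other genes around the pathway were read from 6 further lists. Of the 8 tested genes of SREBP processing and ER sterol sensing, 0 were called with or without the replicate block. They ranged from *Erlin1* (log2 fold change -0.40), a cholesterol-binding protein of the ER membrane, to *Rnf139* (0.02), a ubiquitin ligase of the ER. *Erlin1* was lower in replicate 1 (-0.80, adjusted p = 0.0247 for replicate number), opposite to *Insig1*. Of the 10 tested genes of sterol transport and esters, 0 were called, between *Gramd1b* (-0.36), which moves sterol from plasma membrane to ER, and *Osbpl9* (0.39), an oxysterol-binding protein relative. *Soat2*, the sterol acyltransferase related to *Soat1* and named after its values were seen, had a higher FPKM than *Soat1* in each library, by 2.04 to 3.96 times. Its log2 fold change was -0.34 (adjusted p = 0.567).

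Of the 14 genes that lead farnesyl and geranylgeranyl units into proteins, dolichol and ubiquinone, 0 were called without the replicate block and 1 with it. Over all genes these shares were 0.114% and 4.70%. The gene called was *Fntb*, the beta subunit of farnesyltransferase, at 4.73, 9.34 and 7.70 FPKM in WT and 3.13, 5.46 and 5.03 FPKM in Scd-1-/- replicates 1, 2 and 3. The Scd-1-/- library was the lower within each replicate number, and replicate 1 was the lowest of each genotype. Its log2 fold change was -0.65 (adjusted p = 0.528, and 0.0345 with the block), and the call with the block held in 2 of 6 fits that each left out 1 library. *Fntb* shares 6.45% of its exon bases, on the same strand, with *Churc1*, which had a mean of 480 counts beside 464 for *Fntb*. *Nus1*, a subunit of the dolichol-making enzyme, had the largest positive value of this list, 0.23.

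LXR partners and further LXR targets gave 0 calls of 4 tested genes. *Arl4c* (0.38) and *Smpdl3a* (-0.15) were both higher in replicate 1 (0.93 and 1.08 on the log2 scale, adjusted p = 0.0125 and 0.0164 for replicate number), while *Mylip* had a similar value and *Abcg1* a negative one, -0.21. *Rxrb* was 34.1 to 125 times *Rxra* in FPKM.

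Oxysterols, the ligands of LXR, had few genes at a measurable level, with 2 of 7 tested. *Sult2b1*, which sulfates cholesterol and oxysterols and so removes LXR ligands, had 3.72, 1.40 and 1.04 FPKM in WT and 6.66, 3.86 and 4.26 FPKM in Scd-1-/- replicates 1, 2 and 3. All Scd-1-/- libraries lay above all WT ones, WT replicate 1 only just. The log2 fold change was 1.27 (SE 0.498) with an adjusted p of 0.451, and 1.42 with an adjusted p of 0.0277 with the replicate block, a call that held in 2 of 6 fits without 1 library. *Gpr183*, the receptor for 7 alpha,25-dihydroxycholesterol and the other tested gene of this list, had 7.37, 7.77 and 6.36 FPKM and then 8.82, 12.2 and 13.2 FPKM (0.69, adjusted p = 0.284, and 0.0768 with the block). *Ch25h* and *Cyp7b1*, which make and break down 25-hydroxycholesterol, were at 0 counts in all libraries.

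Lipoprotein receptors held the only gene of these lists called without the block. *Vldlr* (chromosome 19, 27216484 to 27254231), a receptor that takes up lipoproteins and that IDOL, the protein of *Mylip*, degrades, was low, under the minimum of 1 FPKM, and was taken from the fit to 17192 genes, where 0.489% of genes were called and 0.174% were called lower. It had 86, 87 and 92 counts in WT and 22, 6 and 13 counts in Scd-1-/- replicates 1, 2 and 3, or 0.397, 0.434 and 0.453 FPKM and then 0.0989, 0.0298 and 0.0574 FPKM. The groups lay far apart, and the WT libraries were close to each other. *Vldlr* fell by 2.75 on the log2 scale (SE 0.433, adjusted p = 0.0309, and 0.00208 with the replicate block). With 1 library left out, fits that were added after seeing the data, the value lay between -3.23 and -2.43. The adjusted p stayed under 0.05 without WT replicate 1 and without Scd-1-/- replicate 1, and was 0.0834 to 0.234 without any of the other 4. With the replicate block it was under 0.05 in 5 of these 6 fits, and 0.0711 without WT replicate 3. *Scarb1*, the HDL receptor, had 7.31, 12.0 and 10.9 FPKM in WT and 6.80, 5.91 and 6.19 FPKM in Scd-1-/- Teff, a log2 difference of -0.65 (adjusted p = 0.291, and 0.0821 with the block).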

How the data were processed

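RNA-seq of 6 libraries of cultured CD8+ Teff was used. The labels name Trizol, poly(A) RNA and a Vazyme kit, whereas RNA columns and a stranded kit for total RNA stand in the study's methods. The submitters' processing notes name FastQC, HISAT2, StringTie 1.3.0 and GRCm38. The authors deposited raw counts per gene, whole numbers without normalization, and an FPKM value per gene and library. Across libraries, the ratio of counts to deposited FPKM followed total counts, so TMM factors are not in the FPKM.

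Counts were tested with edgeR 4.0.16 (quasi-likelihood test, TMM, genotype only) in R 4.3.3 over genes that averaged 1 FPKM or more, with Benjamini-Hochberg adjustment over all of them. Members under this minimum came from a fit without it. The standard error (SE) is the log2 fold change divided by the square root of F. The alternatives were DESeq2 1.42.0, limma 3.58.1 on log2(FPKM + 1) and log2(FPKM + 0.1), median-ratio scaling, other minimums, the replicate block, a term for replicate 1, replicates 2 and 3 alone, and leaving out each library. Positions, exon overlaps and near copies (90% identity over at least 500 bases) are those of GENCODE M21.

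Deviations from the group means of same-numbered libraries correlated across genes with r of 0.595, 0.306 and 0.470 for replicates 1, 2 and 3, each over 0.1, so the numbers were taken as pairing the libraries. The pairing comes from the data, since no label explains the numbers, and replicates 2 and 3 also correlated when crossed (0.380 and 0.180). Scd-1-/- replicate 2 correlated more with WT replicate 3 (0.380) than with WT replicate 2 (0.306). The values thus set replicate 1 apart but do not settle how replicates 2 and 3 pair. No pair of libraries agreed within sampling noise (chi-square per degree of freedom at least 10.3). A listed 0 leaves room for 3 counts, which is 0.189 to 0.214 CPM, for counting error only.

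Members, lists and alternatives were chosen with earlier results of these data known. Named genes are all members, *Scd1*, and of each other list the genes with an adjusted p under 0.05 with or without the block and those with the largest positive and negative change. *Soat2*, *Gpr183*, *Rxra*, *Rxrb*, *Ch25h* and *Cyp7b1* were named after their values were seen. Cell type markers and genes that share exons or sequence with a member or with *Fntb* are also named. A further B cell marker of the list is not reported here.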

Additional observations from a re-analysis of the deposited data

How the results depend on the processing

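No member was called under any alternative with all libraries or with 1 library left out (0 throughout), and the replicate block, also with 0 members called, changed no call of a member. The exception was replicates 2 and 3 alone, with 5 members called and 22 whose groups did not overlap. Over all genes the number called went from 11 to 452 with the block, 539 with a term for replicate 1, 1213 with replicates 2 and 3 alone and 266 in DESeq2. It was 133, 3 and 3 without WT replicate 1, 2 and 3, and 182, 6 and 2 without Scd-1-/- replicate 1, 2 and 3. The sign of the log2 fold change was kept by 15 of 30 members under all alternatives that gave them a value (*Insig2* and *Mylip* had none at a minimum of 5 FPKM). With 1 library left out, these ran from -0.70 to -0.32 for *Acat2*, 0.18 to 0.41 for *Hmgcs1*, -0.38 to -0.0384 for *Mvk*, -0.59 to -0.22 for *Pmvk*, -0.60 to -0.25 for *Fdps*, 0.0675 to 0.23 for *Ggps1*, -0.45 to -0.15 for *Lss*, -0.32 to -0.0789 for *Nsdhl*, 0.13 to 0.36 for *Sc5d*, -0.44 to -0.25 for *Dhcr7*, -0.28 to -0.0142 for *Srebf2*, 0.0835 to 0.36 for *Insig2*, -0.38 to -0.11 for *Nr1h2*, 0.22 to 0.38 for *Abcg1* and -1.02 to -0.0676 for *Mylip*. With replicates 2 and 3 alone the sign turned for *Fdft1* (-0.12), *Hsd17b7* (-0.12) and *Ebp* (-0.0185). In limma it turned for *Fdft1* (-0.0084 with a pseudocount of 1 and -0.0093 with 0.1) and *Ebp* (-0.0173 and -0.0178), and without the FPKM minimum for *Ebp* (-0.0011). Among the others, values with 1 library left out ran from -0.0147 to 0.0840 for *Cyp51*, -0.0801 to 0.0690 for *Ebp*, -0.22 to 0.18 for *Fdft1*, -0.50 to 0.49 for *Hsd17b7*, -0.27 to 0.22 for *Idi1*, -0.96 to 0.51 for *Insig1*, -0.13 to 0.24 for *Msmo1*, -0.27 to 0.0082 for *Mvd*, -0.0026 to 0.29 for *Npc1*, -0.51 to 0.0164 for *Npc2*, -0.14 to 0.0922 for *Scap*, -0.0998 to 0.17 for *Soat1*, -0.0076 to 0.11 for *Sqle*, -0.0789 to 0.20 for *Stard4* and -0.43 to 0.12 for *Tm7sf2*. These fits with 1 library left out held genotype alone, so each also left 1 replicate number without its partner. With all libraries and the replicate block, *Insig1* had -0.22 and *Npc2* -0.23. The cause of the turned signs was not tested. Depth limits *Nr1h3* and *Abca1*, with 2 to 36 counts per library.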
